A study of Mus musculus with 6 samples.

Results

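The mitochondrial respiratory chain passes electrons from nutrients to oxygen and stores the released energy as a proton gradient across the inner mitochondrial membrane. Complexes I to IV carry the electrons, and complex V, the ATP synthase, uses the gradient to make ATP. Most subunits are encoded in the nucleus and imported into mitochondria, while a few core subunits of complexes I, III, IV and V are encoded in mitochondrial DNA. Neutrophils are known for living mainly on glycolysis with few mitochondria, whereas macrophages and dividing tumour cells use the chain more.

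Genes of the nuclear-encoded subunits were chosen by their symbols (the Nduf genes of series a, b, c, s and v, and the Sdh, Uqcr, Cox4 to Cox8 and Atp5 genes), with at least 10 reads summed over 6 RNA sequencing libraries. Of the 35275 genes counted, 83 symbols matched the pattern and 80 passed the minimum. They comprised 36 genes of complex I (NADH dehydrogenase), 4 of complex II (succinate dehydrogenase), 8 of complex III (cytochrome bc1), 15 of complex IV (cytochrome c oxidase) and 17 of complex V. The 3 genes that fell outside were Cox7b2, Cox8b and Cox8c, each with 0 reads in every library, which allows up to 0.107 to 0.127 CPM of the library total (CPM, counts scaled to a common library size). The members with the fewest reads over all libraries were Cox4i2 with 112, Cox6b2 with 133 and Ndufb2 with 222. All 80 passed the filter on low counts. The pattern also takes in a few genes that are not lasting parts of the complex they are counted under. Ndufa4 is now assigned to complex IV, and Cox7a2l helps complexes III and IV associate. Atp5sl is known from human cells as an assembly factor of complex I. In RefSeq Atp5sl and Atp5s carry other symbols, Dmac2 and Dmac2l. The pattern does not match Cyc1 (cytochrome c1) or Ndufab1, which were counted below with electron carriers and partner genes.

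The libraries came from 2 BALB/C mice that carried CT26 tumours, a mouse colon carcinoma line, under the skin. At a tumour volume of 1800 mm3 the tumours were digested and 3 populations of myeloid cells were sorted from each animal by flow cytometry. The gates combined the neutrophil antigen Ly6G with binding of the T1 aptamer, a short folded nucleic acid. One population was Ly6G-low and bound T1, another was Ly6G-high and bound T1, and the last was Ly6G-high and did not bind it. Each gave 1 library per mouse. Age and sex of the mice, other gated markers and sort purity are not stated. P-values measure the spread between libraries of these 2 animals.

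Libraries held 23595976 to 28045025 counts, and 13883 genes were tested. The Ly6G-low libraries stood apart in markers of the labelled cell type. The 12 pan-leukocyte genes summed to 1681 and 2480 CPM (from here on scaled by the TMM method) in the Ly6G-low libraries and to 12675 to 23661 in the Ly6G-high libraries. The 20 neutrophil genes summed to 386 to 601 against 14389 to 59429 CPM, and 19 macrophage and monocyte genes to 5348 to 9062 against 25507 to 37861. The 16 lymphocyte genes summed to 22.1 to 46.9 against 53.0 to 93.3 CPM. The 20 tumour and epithelial genes summed to 480 to 533 against 254 to 409 CPM, with 1 to 3 of them at 0 counts in the Ly6G-low and 4 to 7 in the Ly6G-high libraries. That list was split by edgeR, with 5 genes higher and 3 lower of 12 tested between the T1-binding populations. The 18 fibroblast and endothelial genes summed to 1211 to 1482 against 583 to 994 CPM, with 5 genes higher and 4 lower between the T1-binding populations. The 22 cell cycle genes summed to 2745 and 2747 against 1229 to 1806 CPM, with 20 higher (90.9%) and none lower in that comparison. Over all tested genes 43% were called there, and 18.8% were called higher. The leukocyte markers Ptprc and Itgam were present in the Ly6G-low cells at 65.8 to 115 and 212 to 356 CPM, while the epithelial marker Epcam was at 0.09 to 1.26 CPM in all libraries. The keratins Krt8 and Krt18, also epithelial markers, were higher in the Ly6G-low libraries than in all others. Krt8 had 85.6 and 83.1 against 16.2 to 58.9 CPM, and its difference from T1-binding cells did not pass (edgeR adjusted p = 0.0559). Krt18 had 36.6 and 28.1 against at most 18.2 CPM (edgeR adjusted p = 0.0164). The epithelial cadherin Cdh1 was lower, at 7.96 and 5.14 against 10.2 to 47.5 CPM (edgeR adjusted p = 0.0305). These differences moved with every Ly6G-low result below, and their part in those results was not tested. In bulk RNA, fewer cells of a type and less RNA per cell cannot be told apart.

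Respiratory chain transcripts took a larger part of the Ly6G-low libraries than of the others. In share of all counts, the 80 genes made up 1.67% and 1.59% of the Ly6G-low libraries (mouse 1, then mouse 2). The Ly6G-high T1-binding libraries held 0.775% and 1.10%, and the Ly6G-high T1-non-binding libraries 0.576% and 0.907%. Both Ly6G-low libraries lay above all 4 Ly6G-high libraries, and in each mouse the order was Ly6G-low, Ly6G-high T1-binding, Ly6G-high T1-non-binding. The same order held in each of the 5 complexes. Complex V took the largest share, from 0.221% in the T1-non-binding library of mouse 1 to 0.683% in the Ly6G-low library of mouse 1. Complex II took the smallest, from 0.0447% to 0.108% in the same libraries. Among the Ly6G-high libraries those of mouse 2 were higher than those of mouse 1 in every complex. A share of counts depends on what else is in the library, and TMM factors, which correct for a few very abundant genes, were 1.40 and 1.39 for the Ly6G-low libraries against 0.653 to 1.01 for the others.

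**Figure D1:**
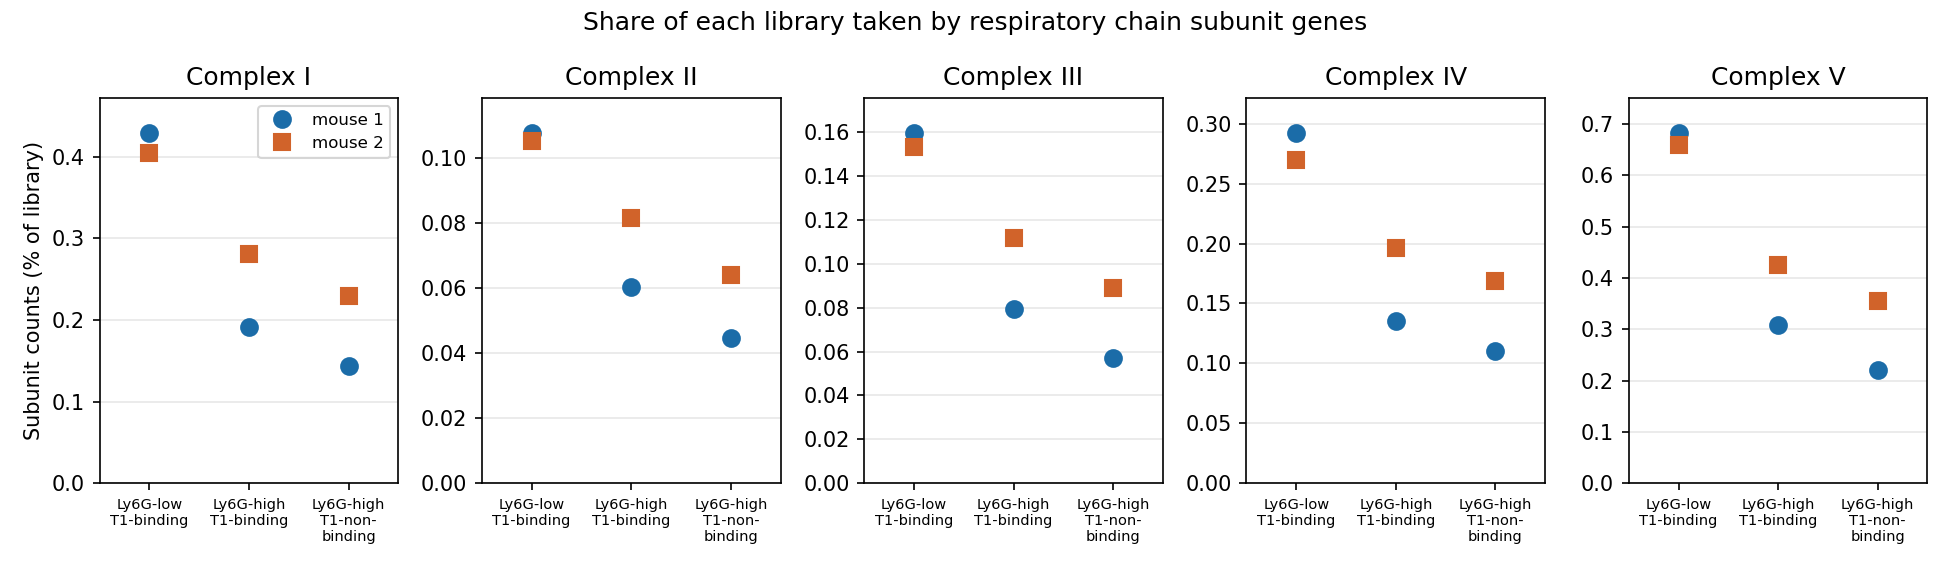
Share of the library's counts (percent, linear axis from 0) taken by the subunit genes of each complex in each library; circles are mouse 1 and squares mouse 2. In every complex the Ly6G-low libraries are highest, and over all complexes the shares are 1.67% and 1.59% in Ly6G-low libraries and at most 1.10% in Ly6G-high libraries.

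After TMM scaling most of this difference was gone. The summed level of the 80 genes was 11981 and 11485 CPM in Ly6G-low, 9034 and 10915 in Ly6G-high T1-binding and 8823 and 9893 in Ly6G-high T1-non-binding libraries. The groups still did not overlap between Ly6G-low and Ly6G-high cells, but the margin between the lower Ly6G-low and the higher Ly6G-high library was small. By complex, only the sums of complexes I and V stayed apart. The Ly6G-high T1-binding library of mouse 2 reached 811 CPM in complex II, 1114 in complex III and 1956 in complex IV. The Ly6G-low libraries had 771 and 758, 1145 and 1107, and 2095 and 1945 CPM there.

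Ly6G-low and Ly6G-high cells that both bound T1 differed in few subunit genes. With the quasi-likelihood test of edgeR, adjusted by Benjamini-Hochberg over all genes tested (threshold 0.05), 2 members rose and 1 fell in Ly6G-low cells. That is 3.75% of the members, where 43% of all tested genes passed (2604 higher, or 18.8%, and 3367 lower). The median log2 fold change was 0.19 over the members and 0.03 over all genes, and 65 of 80 members lay above 0, compared with 51.3% of all genes. In TMM-scaled CPM, 39 members had both Ly6G-low libraries above both Ly6G-high T1-binding libraries (41.6% of all genes did) and 6 had both below (39.6% of all genes). The standard error of a member's log2 fold change had a median of 0.20.

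The genes that rose belong to complex I. Ndufs1 encodes the largest core subunit, whose iron-sulphur clusters lead electrons into the complex (GRCm38 chr1:63143596-63176833, minus strand). Its level was 88.9 and 92.9 CPM in Ly6G-low, 62.2 and 65.7 in Ly6G-high T1-binding and 54.5 and 58.2 in Ly6G-high T1-non-binding libraries. The 3 populations did not overlap. It rose 1.42-fold from Ly6G-high T1-binding to Ly6G-low cells (log2 0.51 ± 0.15 SE, edgeR adjusted p = 0.0351), with log2 differences of 0.51 in mouse 1 and 0.50 in mouse 2. Ndufb9, an accessory subunit of the membrane arm (chr15:58933756-58939488, plus strand), stood at 245 and 220 CPM in Ly6G-low, 128 and 170 in Ly6G-high T1-binding and 157 and 174 in Ly6G-high T1-non-binding libraries. It rose 1.55-fold (log2 0.64 ± 0.21 SE, edgeR adjusted p = 0.0489). The Ly6G-low libraries lay above all others, and the difference was larger in mouse 1 (log2 0.93) than in mouse 2 (0.37). Both calls rested on all 4 libraries: whichever of them was left out, the edgeR adjusted p was 0.155 to 0.266 for Ndufs1 and 0.0732 to 0.285 for Ndufb9. Of the exon bases of Ndufs1 498 of 8086 are shared with genes on the opposite strand, Eef1b2 among them, and of those of Ndufb9 201 of 1031 with a gene on the same strand. Whether reads were counted by strand is not stated.

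The gene that fell was Cox6b2, which encodes the testis form of a complex IV subunit and is scarce here (chr7:4751792-4753094, minus strand). It had 2 and 17 counts in Ly6G-low, 28 and 40 in Ly6G-high T1-binding and 16 and 30 in Ly6G-high T1-non-binding libraries. Scaled, these were 0.061 and 0.491, 1.17 and 1.65, and 1.04 and 1.17 CPM. Both Ly6G-low libraries were below all others after TMM scaling, the library of mouse 1 by the most. With library totals as the scaling, the Ly6G-low library of mouse 2 was not below the T1-non-binding library of mouse 1. The log2 fold change was -2.32 ± 0.76 SE (edgeR adjusted p = 0.0453) against T1-binding cells. Without the Ly6G-low library of mouse 1 it was -1.52 with an adjusted p of 0.131, and without that of mouse 2 it was -4.50 with 0.0152. The call was also lost without the Ly6G-high T1-binding library of mouse 1 (log2 -2.55, adjusted p = 0.101) or mouse 2 (-2.15, 0.102), without the T1-non-binding library of mouse 2 (-2.32, 0.0508) and with library totals as the scaling (-1.77, 0.0865).

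No other core subunit passed the test in this comparison. Ndufv1, the core subunit that takes electrons from NADH, had 144 and 151 CPM in Ly6G-low against 91.4 and 123 in Ly6G-high T1-binding libraries. The groups did not overlap, and the log2 fold change was 0.46 ± 0.22 SE (edgeR adjusted p = 0.119). Atp5b, the catalytic beta subunit of ATP synthase and the most abundant member per length, was at 2017 and 1972 CPM in Ly6G-low, 1390 and 1541 in Ly6G-high T1-binding and 1319 and 1516 in T1-non-binding libraries. The groups did not overlap, but its log2 fold change of 0.44 ± 0.28 SE did not pass (edgeR adjusted p = 0.224). Sdha, the flavoprotein that oxidises succinate, had 308 and 311 CPM in Ly6G-low libraries against 267 and 296 in Ly6G-high T1-binding libraries (log2 0.14, edgeR adjusted p = 0.594). Cox4i1, the common form of complex IV subunit 4, overlapped between the groups with 300 and 279 against 233 and 287 CPM. At the low end of their complexes were Ndufv3, a small subunit of the complex I electron input module (log2 -0.50), Sdhd, a membrane anchor of complex II (-0.15), Uqcrfs1, the Rieske iron-sulphur protein of complex III (-0.23), and Atp5sl (-0.66), none of which passed.

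The difference between the T1-binding populations lay mainly in mouse 1. Within mouse 1 the median log2 difference over the members was 0.40, and within mouse 2 it was 0.00, while over all genes the medians were 0.03 and 0.02. In mouse 1 the complex medians were 0.41 for I, 0.15 for II, 0.41 for III, 0.36 for IV and 0.49 for V. In mouse 2 they ranged from -0.12 for complex II to 0.04 for complex V. Without the Ly6G-high T1-binding library of mouse 1 the median of the members was 0.04, with 0 called.

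**Figure D2:**
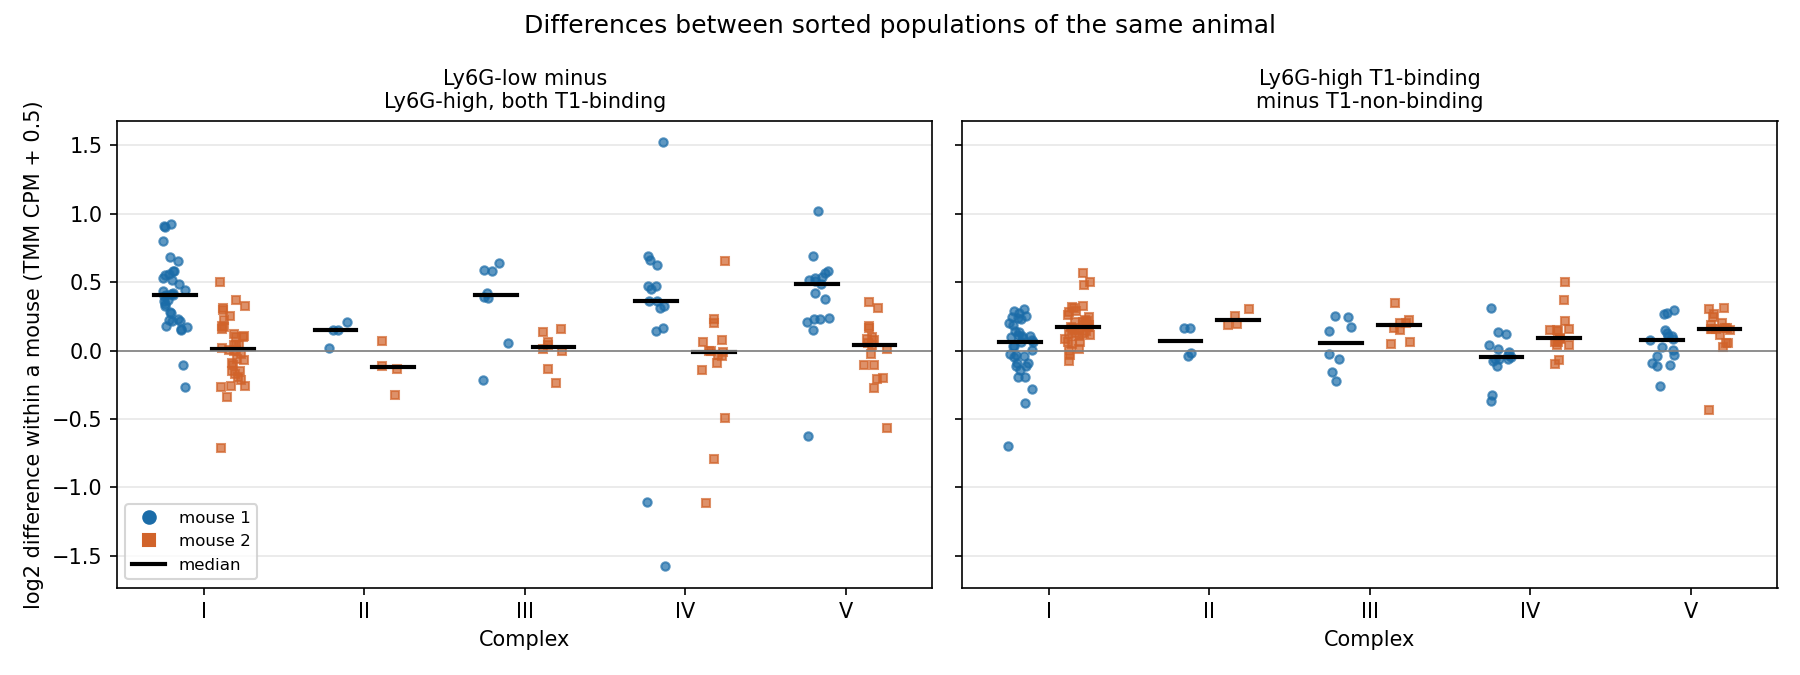
Each point is a subunit gene and gives the log2 difference (TMM-scaled CPM + 0.5) between populations of the same animal, by complex; black bars are medians. Between Ly6G-low and Ly6G-high T1-binding cells (left) the members' median is 0.40 in mouse 1 and 0.00 in mouse 2, and between the Ly6G-high gates (right) it is 0.03 and 0.16.

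With mouse as a block in the fit, since the libraries were paired by animal, 8 members were called between the T1-binding populations and 48.6% of all genes. Higher were Ndufb9, Ndufs1, Ndufa5, Ndufa12, Cox6a2 and Atp5g2, and lower were Cox4i2 and Cox6b2. Ndufa5 and Ndufa12 are accessory subunits of the matrix arm of complex I. Ndufa12 stood at 86.0 and 85.3 CPM in Ly6G-low against 45.6 and 67.8 in Ly6G-high T1-binding libraries, and its edgeR adjusted p was 0.0728 without and 0.0308 with the block. With the block on the libraries of these 2 populations alone, an alternative chosen after seeing the data, 4 members were called against 45.6% of all genes. Cox6a2 and Atp5g2 were higher and Cox4i2 and Cox6b2 lower, and neither Ndufs1 (adjusted p = 0.0805) nor Ndufb9 (0.0637) passed.

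Against Ly6G-high T1-non-binding cells, Ly6G-low cells showed a wider tilt of the subunit genes upward, again with few calls. The members' median log2 fold change was 0.29, that of all genes 0.09, and 71 of 80 members lay above 0 (53.2% of all genes). The complex medians were 0.33 for I, 0.23 for II, 0.27 for III, 0.26 for IV and 0.34 for V. In both mice the members' median was above 0, at 0.44 in mouse 1 and 0.17 in mouse 2. In TMM-scaled CPM 64 members were higher in both Ly6G-low libraries than in both T1-non-binding libraries (43.6% of all genes) and 8 lower (36.6% of all genes). This comparison shares its Ly6G-low libraries with the previous one.

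By edgeR 3 members rose and none fell, 3.75% of the members against 39.8% of all genes (2230 higher, or 16.1%, and 3298 lower). Ndufs1 and Ndufa10 of complex I were among them. Ndufs1 rose 1.61-fold (log2 0.69 ± 0.15 SE, edgeR adjusted p = 0.0157). Ndufa10, an accessory subunit, had 119 and 116 CPM in Ly6G-low and 71.6 and 88.3 in T1-non-binding libraries, and rose 1.47-fold (log2 0.55 ± 0.18 SE, edgeR adjusted p = 0.0464). For both genes the groups did not overlap and both mice moved the same way. The Ndufa10 call held when the T1-non-binding library of mouse 2 was left out and was lost without each of the others (edgeR adjusted p of 0.0730 to 0.211), and the Ndufs1 call was lost without either Ly6G-low library or the T1-non-binding library of mouse 1 (0.0609 to 0.117). With mouse as a block 9 members were called, 8 higher and Cox6b2 lower, against 46.4% of all genes. Among the higher genes, those not called without the block were Ndufa5, Ndufa12, Ndufv1, Cox6a2 and Atp5g2. With the block on the libraries of these 2 populations alone 2 members were called, Cox6a2 higher and Cox6b2 lower, against 36% of all genes.

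**Figure D3:**
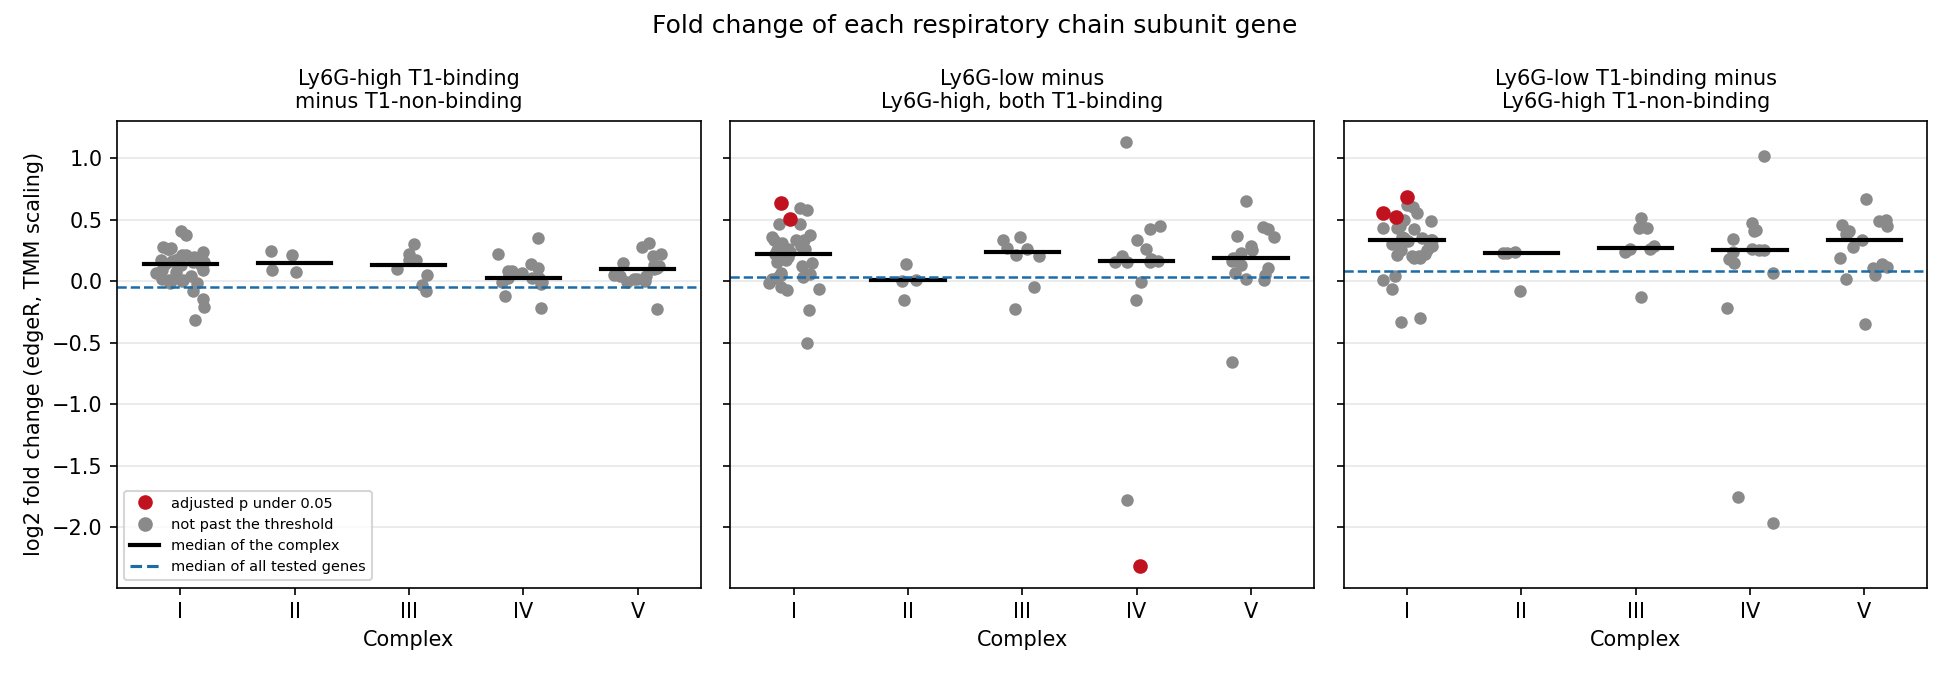
log2 fold change (edgeR, TMM scaling) of each subunit gene, grouped by complex, in the 3 comparisons; red points passed an adjusted p of 0.05, black bars are complex medians and the dashed line is the median of all tested genes. No gene is red between the Ly6G-high gates, 3 are red in each comparison with Ly6G-low cells, and the genes at about -2 are Cox6b2 and Cox4i2.

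No subunit gene passed the test between T1-binding and T1-non-binding Ly6G-high cells. Since no gene of any kind passed it, a lack of difference cannot be read from it. Its fit held no mouse term, while same-mouse deviations from the group means had a correlation of 0.514 for these 2 gates. By edgeR 0 of 80 members and 0% of all genes passed, and at an unadjusted p under 0.05 there were 0 members and 1623 of all genes. With limma-voom no gene passed, and with DESeq2 203 genes passed (1.46%), none of them a member. The median log2 fold change was 0.10 over the members and -0.05 over all genes, and 65 members lay above 0 (44.6% of all genes). Both T1-binding libraries were above both T1-non-binding libraries for 14 members (20.1% of all genes), and below for 1, the complex IV gene Cox8a (19.1% of all genes). The extremes among the larger complexes were Ndufb5 of complex I at 0.41 and Ndufb2 at -0.31. Among the genes counted under complex V they were Atp5sl at 0.32 and Atp5s at -0.23. The widths behind such values were large: a 95% interval of a member typically reached 0.47 to either side. In the macrophage and monocyte list the median was 1.04 and in the neutrophil list -1.36 in the same comparison, and their part in the subunit values was not tested.

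In a fit of the 4 Ly6G-high libraries with mouse as a block, an alternative chosen after seeing the data that left 1 residual degree of freedom, 14 members were called, all higher in T1-binding cells, where 28.2% of all genes were called and 13.6% called higher. Among them were Ndufa4, Ndufa9, Ndufa10, Ndufb5, Ndufb7, Ndufc1, Ndufc2, Sdhb, Sdhc, Uqcrb, Uqcrc1, Atp5a1 and Atp5o. The block on all 6 libraries called 0. Uqcrc1, a core protein of complex III, is an example, with 254 and 292 CPM in T1-binding against 214 and 230 in T1-non-binding libraries and log2 differences of 0.25 in mouse 1 and 0.35 in mouse 2. In both gates its level was higher in mouse 2. Without the T1-binding library of mouse 2 the members' median was -0.01, and without the T1-non-binding library of mouse 1 it was 0.02.

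The fold changes of the subunit genes depended on the scaling of the libraries. A change of scaling shifts all genes of a comparison by nearly the same amount. Their distance from the median of all genes was therefore nearly fixed in advance, and its steadiness across scalings is no result about these genes. With library totals in place of TMM, the members' medians were 0.35 between the Ly6G-high gates, 0.76 between the T1-binding populations and 1.10 against T1-non-binding cells. The medians of all genes moved along, to 0.20, 0.61 and 0.91. The counts of members called became 0, 29 and 72, with 0%, 53.6% and 65.9% of all genes called. The calls over all genes shifted as well, from 2604 higher and 3367 lower to 5208 and 2235 between the T1-binding populations, and from 2230 and 3298 to 7262 and 1883 against T1-non-binding cells. Over TMM, RLE, upper-quartile factors and library totals, the members' median minus that of all genes stayed between 0.14 and 0.15, 0.14 and 0.16, and 0.18 and 0.20 in the 3 comparisons. The choice of libraries moved that distance more. It was 0.01 between the T1-binding populations without the Ly6G-high T1-binding library of mouse 1, 0.02 between the Ly6G-high gates without the T1-non-binding library of mouse 1, and 0.08 against T1-non-binding cells without that same library. It was 0.31 between the T1-binding populations without the Ly6G-high T1-binding library of mouse 2, 0.27 between the Ly6G-high gates without that of mouse 1, and 0.34 against T1-non-binding cells without the T1-non-binding library of mouse 2.

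**Figure D4:**
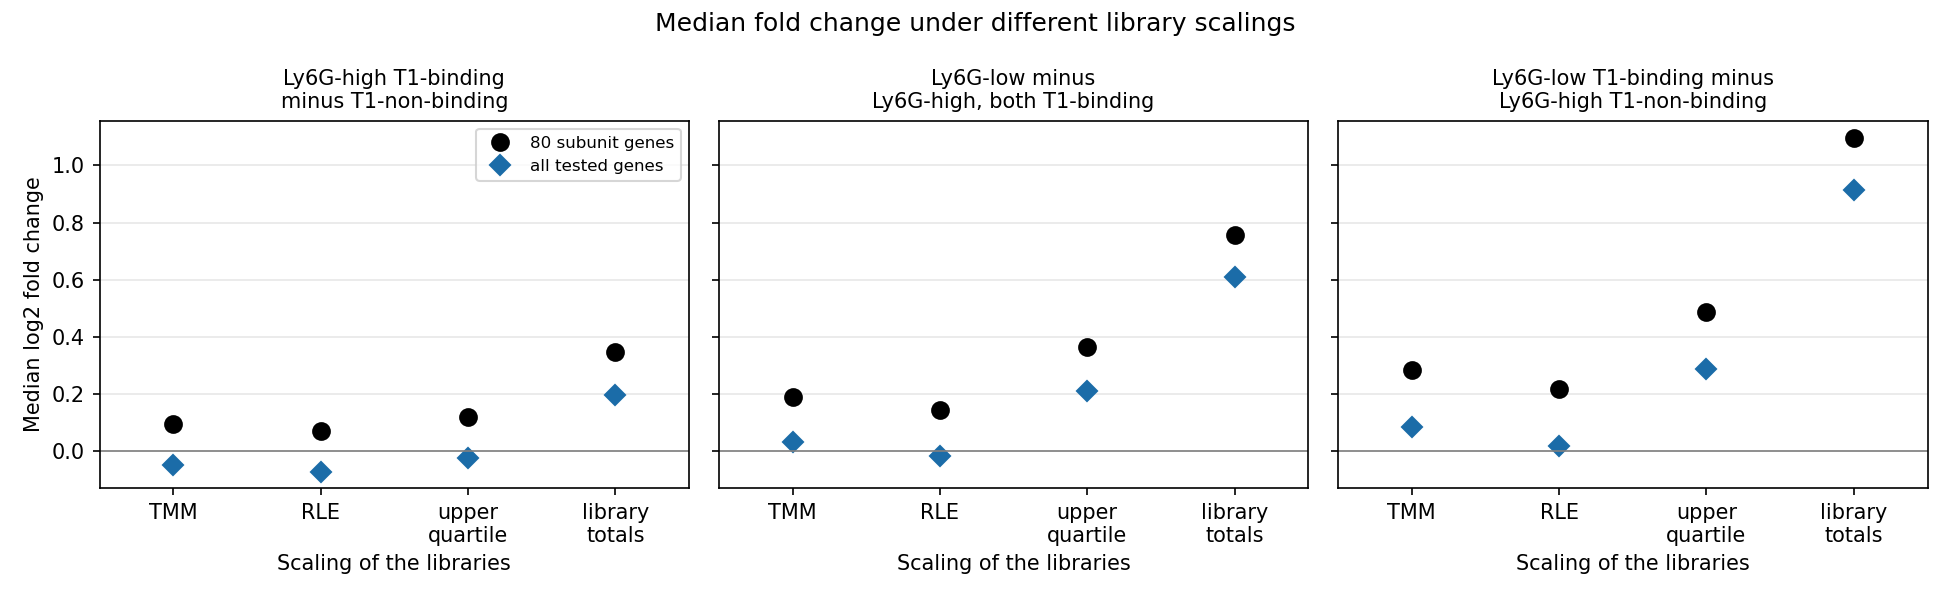
Median log2 fold change of the 80 subunit genes (black circles) and of all tested genes (blue diamonds) under 4 scalings, in the 3 comparisons. Both medians move up together with library totals (members at 0.35, 0.76 and 1.10). The distance between them, between 0.14 and 0.20, is nearly fixed in advance because scaling shifts all genes by nearly the same amount.

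Comparing the complexes with each other removes the scaling, since every library is set against its own subunit total. In share of the subunit counts, complex V took 40.9% and 41.4% in Ly6G-low and 38.3% to 39.9% in Ly6G-high libraries. Complex II took 6.44% and 6.60% against 7.03% to 7.76%, and complex III 9.56% and 9.64% against 9.80% to 10.2%. These 3 shares did not overlap between Ly6G-low and Ly6G-high libraries, whereas those of complexes I and IV did. The complex V difference rested on Atp5b, which made up 16.8% and 17.2% of the subunit counts in Ly6G-low and 14.1% to 15.4% in Ly6G-high libraries. With Atp5b left out of the counts, complex V took 28.9% and 29.2% against 27.5% to 29.0%, and the groups overlapped. The other shares moved as well when Atp5b was left out. Complex III then took 11.5% and 11.6% against 11.6% to 12.1% and overlapped, complex I took 30.9% and 30.7% against 29.2% to 29.9% and no longer did, and complex II stayed apart at 7.74% and 7.97% against 8.31% to 9.17%. No test was made on these shares.

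Levels were compared between genes per length, as FPKM, the unit in which counts are divided by gene length and library total. Atp5b was highest in every library, from 449 FPKM in the T1-non-binding library of mouse 1 to 1468 in the Ly6G-low library of mouse 1. Complex IV was led by Cox6b1, with 843 and 797 FPKM in Ly6G-low libraries. At the other end of complex I stood Ndufb2, at 0.197 to 0.449 FPKM in the 6 libraries, where the complex I median ran from 34.7 to 102 FPKM. Of the 5628 annotated exon bases of Ndufb2, 447 are shared with other genes. Whether its low value reflects the transcript or the annotation and counting was not tested. Ndufb2 overlapped between Ly6G-low and Ly6G-high T1-binding cells, and its fold changes passed in no comparison.

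Several complex IV and V subunits exist as a common form and a form restricted to certain tissues. In both comparisons with Ly6G-low cells the largest log2 fold changes of the members were those of 3 restricted forms, Cox6b2, Cox4i2 and Cox6a2, all with low counts. Cox6a2 is the heart and muscle form of subunit 6a (chr7:128205435-128206387, minus strand). It had 7.20 and 7.08 CPM in Ly6G-low, 2.18 and 4.32 in Ly6G-high T1-binding and 2.27 and 4.67 in T1-non-binding libraries. The Ly6G-low libraries were higher than all others, by more in mouse 1. The log2 fold change against T1-binding cells was 1.13 ± 0.43 SE (edgeR adjusted p = 0.0673, and 0.0178 with mouse as a block). Against T1-non-binding cells it was 1.02 ± 0.43 SE (adjusted p = 0.0934, and 0.0277 with the block). Of the 680 exon bases of Cox6a2, 70 overlap the integrin gene Itgad on the opposite strand, and whether reads were counted by strand is not stated. In FPKM, Cox6a2 was 2.23% and 2.46% of the sum of Cox6a1 and Cox6a2 in Ly6G-low and 0.935% to 1.78% in Ly6G-high libraries, so the common form Cox6a1 prevailed in all of them.

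Cox4i2, the form of subunit 4 known from lung and from responses to low oxygen (chr2:152754173-152765037, plus strand), went the other way. It had 0.334 and 0.289 CPM in Ly6G-low, 1.30 and 0.865 in Ly6G-high T1-binding and 1.75 and 0.467 in T1-non-binding libraries. Both Ly6G-low libraries were lowest after TMM scaling, although the T1-non-binding library of mouse 2 came close. With library totals as the scaling, the Ly6G-low and T1-non-binding libraries overlapped. The log2 fold change of -1.78 ± 0.70 SE against T1-binding cells had an edgeR adjusted p of 0.0758, and of 0.0403 with mouse as a block. Cox6b2 made up 0.0172% and 0.146% of the Cox6b1 and Cox6b2 sum in Ly6G-low and 0.347% to 0.484% in Ly6G-high libraries. Cox7a1, the heart and muscle form of subunit 7a, overlapped between all groups at 1.99 to 3.34 CPM.

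**Figure D5:**
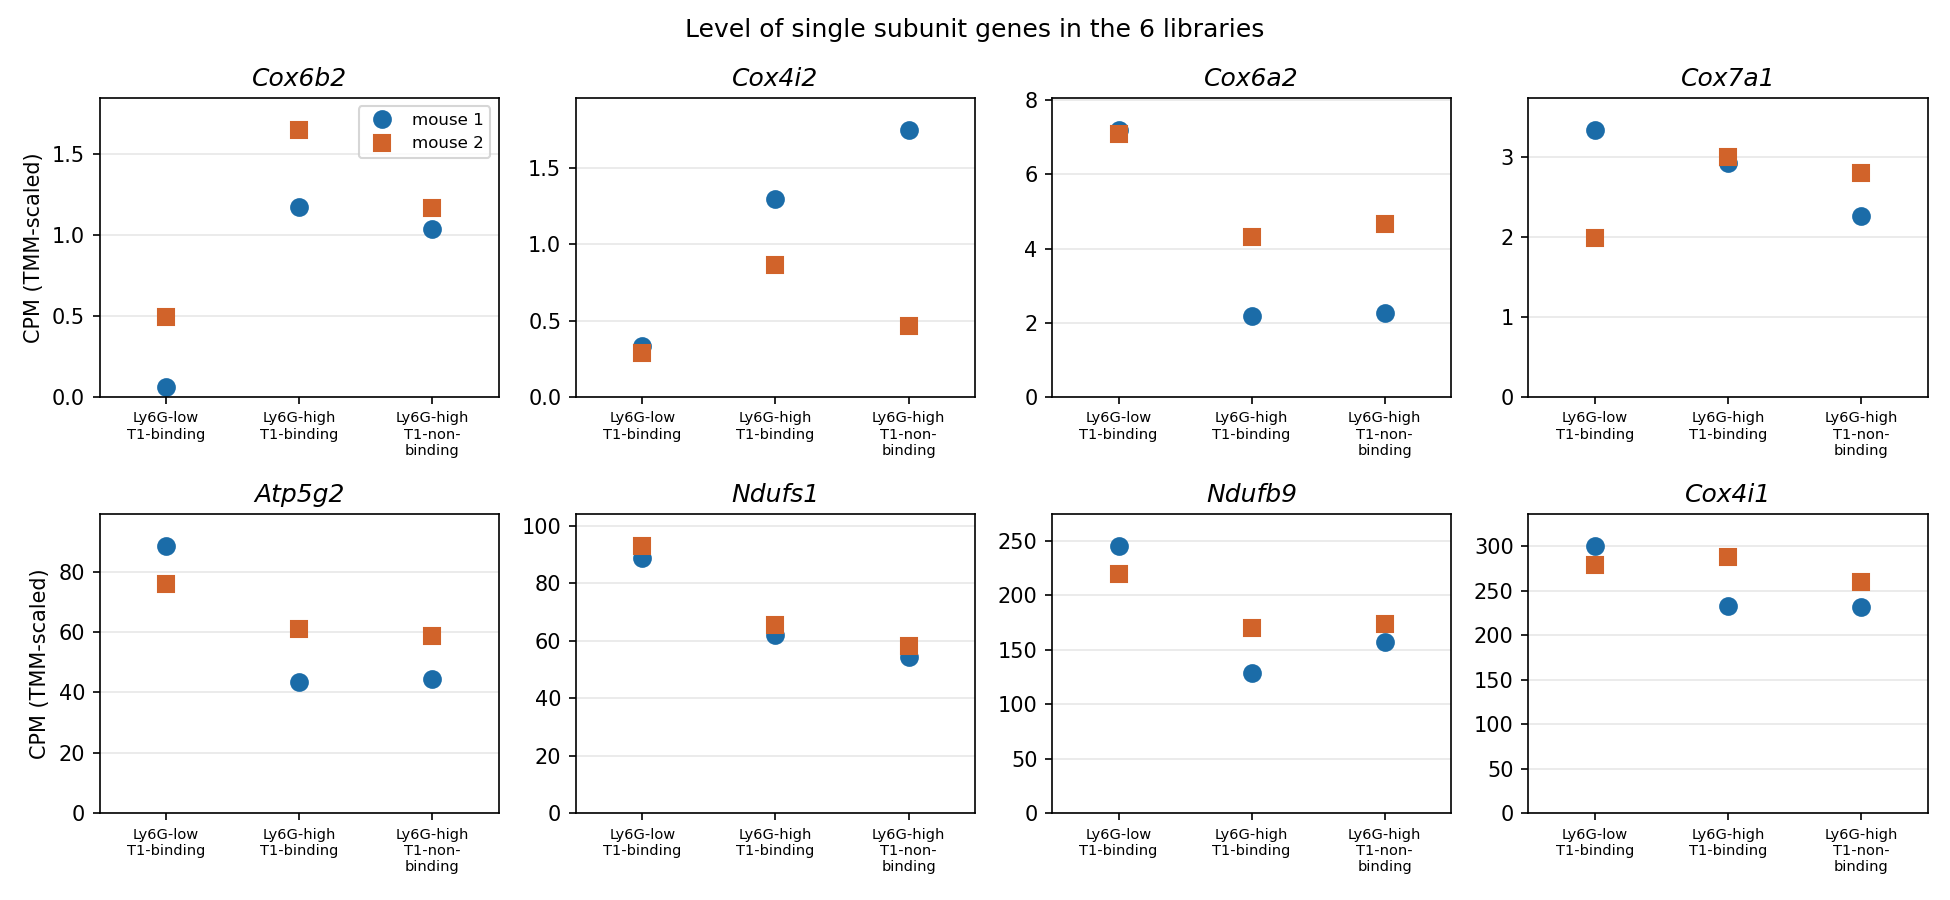
TMM-scaled CPM (linear axes from 0) of 8 subunit genes in the 3 populations; circles are mouse 1 and squares mouse 2. Cox6b2 and Cox4i2 are lowest in Ly6G-low cells, Cox6a2, Atp5g2, Ndufs1 and Ndufb9 are highest there, while Cox7a1 overlaps between all groups and Cox4i1 between the T1-binding groups.

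Subunit c of ATP synthase, which forms the rotating ring in the membrane, is made from 3 genes that encode the same mature protein with different import signals. In the FPKM sum of these genes, Atp5g3 took 73.8% and 75.0% in Ly6G-low and 75.4% to 78.1% in Ly6G-high libraries. Atp5g2 took 21.8% and 20.2% against 16.9% to 19.6%. These shares did not overlap, while Atp5g1, at 4.40% to 5.35% in all libraries, did. Atp5g2 (chr15:102662864-102672352, minus strand) had 88.4 and 75.7 CPM in Ly6G-low, 43.3 and 61.0 in Ly6G-high T1-binding and 44.5 and 58.6 in T1-non-binding libraries. Its log2 fold change of 0.65 ± 0.23 SE against T1-binding cells reached an edgeR adjusted p of 0.0576, and of 0.0320 with mouse as a block. The longest run shared by transcripts of Atp5g1 and Atp5g2 was 21 bases, and that of the other paralog pairs described here 10 to 14 bases.

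Genes of the respiratory chain are known to be driven by the factors NRF1, GABP (an ETS factor), YY1 and the estrogen-related receptors. The shares of Atp5g2, Atp5g3 and Cox6b2 did not overlap between Ly6G-low and Ly6G-high libraries, while that of Atp5g1 did. No test was made on these shares. The promoters of the subunit c genes and of the Cox6b forms are printed for that reason, as alternative forms of a subunit. Each is the RefSeq window of GRCm38.p6 from 250 bases before to 50 bases after the start, on the minus strand in all 5, with matches to the searched motifs in capitals.
Atp5g1, chr11:96075582-96075881: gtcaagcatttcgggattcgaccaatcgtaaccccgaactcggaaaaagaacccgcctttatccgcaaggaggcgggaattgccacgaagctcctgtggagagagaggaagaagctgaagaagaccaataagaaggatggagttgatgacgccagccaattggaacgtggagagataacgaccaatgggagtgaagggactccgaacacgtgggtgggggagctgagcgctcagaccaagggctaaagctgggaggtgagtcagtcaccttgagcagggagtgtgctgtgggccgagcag
Atp5g2, chr15:102670998-102671297: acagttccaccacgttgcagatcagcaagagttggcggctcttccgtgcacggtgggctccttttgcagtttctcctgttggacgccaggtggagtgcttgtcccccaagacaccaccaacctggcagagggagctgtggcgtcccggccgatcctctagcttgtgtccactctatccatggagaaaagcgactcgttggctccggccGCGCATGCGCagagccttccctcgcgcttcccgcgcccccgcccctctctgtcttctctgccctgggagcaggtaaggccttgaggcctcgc
Atp5g3, chr2:73911277-73911576: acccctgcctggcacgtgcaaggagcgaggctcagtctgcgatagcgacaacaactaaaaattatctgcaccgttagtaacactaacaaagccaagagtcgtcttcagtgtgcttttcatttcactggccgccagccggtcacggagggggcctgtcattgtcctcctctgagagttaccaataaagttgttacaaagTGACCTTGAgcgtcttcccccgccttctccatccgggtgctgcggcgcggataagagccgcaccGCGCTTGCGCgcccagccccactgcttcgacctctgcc
Cox6b1, chr7:30626065-30626364: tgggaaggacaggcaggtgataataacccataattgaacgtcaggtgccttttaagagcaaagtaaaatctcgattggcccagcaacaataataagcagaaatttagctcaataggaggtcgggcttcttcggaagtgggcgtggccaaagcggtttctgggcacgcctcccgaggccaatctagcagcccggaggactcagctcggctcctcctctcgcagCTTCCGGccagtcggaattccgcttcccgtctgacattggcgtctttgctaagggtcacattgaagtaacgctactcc
Cox6b2, chr7:4753045-4753344: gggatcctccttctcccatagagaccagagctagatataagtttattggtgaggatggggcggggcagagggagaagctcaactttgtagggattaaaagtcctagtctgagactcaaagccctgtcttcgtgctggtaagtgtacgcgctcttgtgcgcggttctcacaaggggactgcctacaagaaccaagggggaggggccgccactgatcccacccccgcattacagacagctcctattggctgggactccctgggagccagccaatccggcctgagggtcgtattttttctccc
The window of Atp5g2 holds an NRF1 match, that of Atp5g3 an NRF1 match and a match for the estrogen-related receptors, and that of Cox6b1 an ETS match, while the windows of Atp5g1 and Cox6b2 hold none of the letters searched.

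Windows were matched for 67 of the 80 members, 3 of them by an older symbol, but not, among others, for Ndufs1, Ndufb9, Cox6a2 or Cox4i2. Both strands were searched. The NRF1 motif, GCGCA, any base and GCGC, was in windows of 17 members, 25.4%, and of 5.19% of all genes. The ETS motif CCGGAAG was found for 16 members, 23.9%, and for 9.93% of all genes. The YY1 motif AAGATGGCG was found for 8 members, 11.9%, and for 1.64% of all genes. The motif of the estrogen-related receptors, TCAAGGTCA, was found for 2 members, 2.99%, and for 0.466% of all genes. The ETS motif ends in the letters with which the YY1 motif begins, so a stretch can hold both. A match describes the letters and not binding.

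Other genes that build or feed the chain were counted from lists, by the same edgeR test and background. In the comparison of the T1-binding populations, where 43% of all genes were called and 18.8% rose, 10 of 25 protein import genes (40%) rose and none fell, with a list median of 0.48. Among them Timm8a1, a carrier of proteins across the space between the membranes, was at 40.7 and 38.6 CPM in Ly6G-low and 15.7 and 22.7 in Ly6G-high T1-binding libraries (log2 1.05, edgeR adjusted p = 0.0141). Of 75 genes of the mitochondrial ribosome 15 rose and 1 fell, with a median of 0.39. The 20% that rose was near the share of all genes. Mrps6 rose by a log2 fold change of 1.32, and Mrpl39 was the gene that fell, by 0.50 on the log2 scale.

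Of 40 assembly factors 7 rose (17.5%) and 2 fell, with a median of 0.33. Lrpprc, which stabilises mitochondrial mRNAs and complex IV, had 84.7 and 92.6 against 45.8 and 50.4 CPM and rose by a log2 fold change of 0.88 (edgeR adjusted p = 0.00736). Cox17, the copper chaperone of complex IV, fell the most in the list. It stood at 0.395 and 0.231 CPM in Ly6G-low, 6.20 and 3.05 in Ly6G-high T1-binding and 9.52 and 6.53 in T1-non-binding libraries (log2 -3.87 against T1-binding cells, edgeR adjusted p = 0.00342). Of 18 genes of the citric acid cycle and pyruvate entry 2 rose (11.1%), with a median of 0.37, among them Pcx, the pyruvate carboxylase, by 0.95.

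Of 16 genes of mitochondrial biogenesis and transcription 3 rose (18.8%), with a median of 0.19, among them the transcription factor of mitochondrial DNA Tfb2m by 0.75. Of 17 electron carriers and partner genes 3 rose (17.6%) and 1 fell, with a median of 0.22. Aifm1, a flavoprotein of the space between the membranes, rose by 0.88. Ucp2, a mitochondrial carrier known from leukocytes, was the gene that fell. It had 200 and 296 CPM in Ly6G-low, 1279 and 1249 in Ly6G-high T1-binding and 1302 and 995 in T1-non-binding libraries (log2 -2.35, edgeR adjusted p = 0.00349). Against T1-non-binding cells the same lists gave 10 higher of 25 for import, 21 higher and 2 lower of 75 for the ribosome, 8 and 3 of 40 for assembly, 4 and 0 of 18 for the citric acid cycle, 5 and 1 of 16 for biogenesis and 3 and 1 of 17 for carriers. The shares called in either direction were 40%, 30.7%, 27.5%, 22.2%, 37.5% and 23.5% in that order, where 39.8% of all genes were called, and the shares that rose were 40%, 28%, 20%, 22.2%, 31.2% and 17.6%, where 16.1% of all genes rose. The gene that fell in the biogenesis list was the factor Yy1, with 11.8 and 12.4 against 31.3 and 20.5 CPM (log2 -1.09, edgeR adjusted p = 0.0143). With library totals its log2 fold change was -0.22 (adjusted p = 0.437), and the call was lost without either Ly6G-low library (0.0889 and 0.0546) and without the T1-non-binding library of mouse 1 (0.0515). Cyc1 was among the carriers that rose against T1-non-binding cells (log2 0.60), with an edgeR adjusted p of 0.0465, near the threshold. It had 204 and 197 CPM in Ly6G-low against 119 and 145 in T1-non-binding libraries. Between the Ly6G-high gates no gene of these lists passed. Of the calls given by name in these lists, those of Timm8a1, Mrps6, Mrpl39, Lrpprc, Pcx, Tfb2m and Aifm1 were each lost without at least 2 of the 6 libraries (edgeR adjusted p of 0.0513 to 0.183), while those of Cox17 and Ucp2 held whichever library was left out.

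The subunits encoded in mitochondrial DNA took 1.21% and 0.958% of counts in Ly6G-low, 0.395% and 0.625% in Ly6G-high T1-binding and 0.314% and 0.357% in T1-non-binding libraries. Set against the nuclear-encoded subunits of the same library, their counts were 0.725 and 0.602 times as many in Ly6G-low, 0.509 and 0.571 in Ly6G-high T1-binding and 0.545 and 0.394 in T1-non-binding cells. That ratio was higher in both Ly6G-low libraries than in the other 4. Of 11 tested mitochondrial genes, 0 passed between the T1-binding populations by edgeR, where 43% of all genes passed. Among the 11, 1 had an unadjusted p under 0.05. Against T1-non-binding cells the list median was 0.82, where 39.8% of all genes were called and 16.1% rose. Of the list 3 genes rose (27.3%) and none fell. Among them mt-Co3, a core subunit of complex IV, had 46.8 and 40.2 against 25.2 and 24.5 CPM (log2 0.81, edgeR adjusted p = 0.0355), and the call was lost without each of the 4 libraries compared (0.0757 to 0.173). Between the Ly6G-high gates the median of these genes was -0.05 in mouse 1 and 0.65 in mouse 2.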

How the data were processed

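Per the labels, an RNeasy Micro kit was used for RNA and standard Illumina protocols for libraries. Per the submitters' processing notes, the tools were TopHat, STAR 2.5 and HTSeq 0.6.1 and the build mm10. The annotation release and strand setting are not given in the sources used here. The authors deposited whole-number read counts and FPKM values for 35275 genes, and their ratio implied an identical length for a gene across libraries. Samples were grouped by title and paired by the mouse in the source label.

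Members, gene lists and alternatives were chosen with earlier results of these data known. Counts were filtered with filterByExpr, normalised by TMM and entered the quasi-likelihood test of edgeR 4.0.16 (R 4.3.3). The model held the 6 libraries and the 3 groups, with no mouse term and 3 residual degrees of freedom. P-values were adjusted by Benjamini-Hochberg over 13883 genes with a threshold of 0.05. CPM values are TMM-scaled, and levels between genes use the deposited FPKM. Standard errors are the log2 fold change divided by the root of F. Libraries held 23595976 to 28045025 counts, and limits for a count of 0 (3 counts) cover counting error only.

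The pairing comes from the labels. Checked over genes, deviations of same-mouse libraries from their group means had a correlation of 0.514 for the 2 Ly6G-high gates. It was -0.006 for Ly6G-low with Ly6G-high T1-binding libraries and -0.043 for Ly6G-low with T1-non-binding libraries. Exon coordinates came from GENCODE M21, in which all 80 members matched, and 28 of them shared exon bases with another gene, none over 50% of theirs.

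Named genes were fixed core subunits, isoform pairs, the highest and lowest fold change of each complex and comparison, genes under the read minimum, members called against most of their complex, and the most significant gene of each list in each direction. The other members called with or without the block, Timm8a1 and other list genes beyond the first, single marker genes, and genes given by their shares were chosen after their values were seen. Alternatives were a block for mouse, a fit of the compared groups only, RLE and upper-quartile factors, library totals, DESeq2 1.42.0, limma-voom (limma 3.58.1), no filter, at least 50 counts in 2 libraries, and each library left out. The block on the compared groups alone was added after seeing the data. The scripts were tested on simulated data. The values of 1 member are not reported here, although it is counted in every total.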

Additional observations from a re-analysis of the deposited data

How the results depend on the processing

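With 2 animals, each of the 6 calls of members was lost under at least 1 setting, and the cause of the changes below was not tested. Of the values for single genes under the alternatives, 732 kept direction and call, 75 newly passed, 78 no longer passed and 16 turned, and of the medians of single complexes 206 moved by less than the spread between mice and 34 by more. Members called between the T1-binding populations numbered 3, and 8 with a mouse block, 7 with the compared groups only and 29 with library totals. They numbered 6 each with upper-quartile factors and DESeq2, 5 without a filter and 1 at 50 counts in 2 libraries. Of all genes, 43% were called in the main fit, and 48.6%, 49.2%, 53.6%, 48.1%, 45.4%, 29.5% and 47.1% under these settings in that order. Against T1-non-binding cells there were 3, and 9 with the block and 1 each with the compared groups only, RLE factors and 50 counts. There were 72 with library totals, 13 with upper-quartile factors and 5 without a filter. Of all genes, 39.8% were called in the main fit, and 46.4%, 35.3%, 36.1%, 42.6%, 65.9%, 48.9% and 28.9% under these settings in that order. Between the Ly6G-high gates 0 members became 14 with the block on the compared groups, where 3778 of all genes were called. With DESeq2 and without a filter 0 members were called there, beside 203 and 71 of all genes. All genes called against T1-non-binding cells became 9145 with library totals. Medians of members with library totals were 0.35, 0.76 and 1.10, and 0.49 against T1-non-binding cells with upper-quartile factors.

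Leaving out each library gave 0 members between the Ly6G-high gates, 0 to 7 between the T1-binding populations and 0 to 9 against T1-non-binding cells. All genes called ranged from 0 to 0, 1972 to 6731 and 1527 to 6282, and the medians of members from -0.0069 to 0.25, 0.04 to 0.27 and 0.20 to 0.40. Single genes turned as follows. Between the Ly6G-high gates Uqcrq came to 0.18 and Cox8a to 0.046 with library totals. In the same comparison, leaving out libraries gave Uqcrq -0.21 to 0.088, Ndufb2 -0.68 to 0.013 and Atp5s -0.70 to 0.58. Between the T1-binding populations library totals gave Ndufv3 0.065, Sdhd 0.42, Uqcrfs1 0.35 and Mrpl39 0.081, and upper-quartile factors gave Sdhd 0.025. Against T1-non-binding cells library totals gave Ndufb2 0.52, Sdhd 0.75, Uqcrfs1 0.71 and Atp5sl 0.46, and upper-quartile factors gave Sdhd 0.13 and Uqcrfs1 0.081. Cox4i2 and Cox6b2, with 112 and 133 reads in all, are limited by depth.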
